A study of Mus musculus with 5 samples.

Results

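The genes described here encode 10 secreted signals of the transforming growth factor beta superfamily: the BMP ligands Bmp2, Bmp4, Bmp6, Bmp7 and Gdf6, the Nodal and activin ligands Nodal, Inhbb and Gdf3, and the Nodal inhibitors Lefty1 and Lefty2. They were taken by gene symbol from the genes that the authors list with KAP1 or Ring1b at a promoter or over the gene. They are 10 of the 21031 protein-coding genes of the mouse reference. The series is a chromatin immunoprecipitation and sequencing (ChIP-seq) study of mouse embryonic stem cells that mapped KAP1, a corepressor encoded by Trim28, and Ring1b, a catalytic subunit of Polycomb repressive complex 1. Its title places both proteins together in the repression of genes that are switched on in differentiation. There were 5 libraries, 1 per group. The KAP1 fl/fl line gave a Ring1b library after 4-hydroxytamoxifen (labelled knockout), and KAP1 libraries after 4-hydroxytamoxifen and after ethanol vehicle (labelled wild type). The Ring1b fl/fl line gave Ring1b libraries after 4-hydroxytamoxifen and after vehicle. Drug or vehicle was given for 24 h and culture went on for 48 h, with tamoxifen present for the Ring1b line and absent for the KAP1 line. All cells, knockout and vehicle alike, grew on irradiated mouse embryonic fibroblasts. The sources used here do not name the Cre driver, the number of clones or the share of feeder cells in the chromatin. The lists hold no expression values, so the labelled cell type was not checked against markers.

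BMPs and activins are dimeric ligands that bring type I and type II serine/threonine kinase receptors together. BMP receptors pass the signal to Smad1, Smad5 and Smad9, while Nodal and activin receptors pass it to Smad2 and Smad3. Nodal needs a co-receptor of the Cripto family, and the Lefty proteins bind Nodal or that co-receptor and block signalling, so that they limit the pathway that switches them on. In mouse embryonic stem cells BMP4 supports self-renewal together with LIF, and in the embryo Nodal and BMP signals pattern the germ layers. Polycomb repressive complex 1 is known for broad domains over the silent promoters of developmental regulators, and KAP1 for its recruitment by KRAB zinc finger proteins.

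3 peak lists were deposited. The KAP1 list held 82775 peaks (median width 512 bp) of the vehicle library called against the tamoxifen library of the same line. The Ring1b list held 13516 peaks (median width 587 bp), called in the same way in the Ring1b line. A list of 8928 Ring1b peaks (median width 158 bp) from KAP1 fl/fl tamoxifen cells, called against Ring1b fl/fl tamoxifen cells, is called the knockout list here. Each peak's score is the authors' own value, 10 times a -log10 p, and ranks peaks within 1 list only. A Ring1b score of 3100 was shared by 732 tied peaks, and 94.2% of the list scored lower. With 1 library per group no value has a replicate error and no difference was tested. KAP1 and Ring1b were mapped in different lines, so a shared site is not evidence of joint binding in 1 cell.

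All 10 ligand genes had KAP1 or Ring1b at a promoter, against 62.5% of protein-coding genes. The ligands were taken from genes listed with either protein, so this count was largely set by the choice. Their shares for KAP1, Ring1b or both, at promoters and over whole genes, may be raised by it. All 5 BMP ligands chosen here had a Ring1b peak touching the promoter. This was not so for every gene of the BMP and Gdf names left out of the choice. Bmp5, Bmp10, Bmp15 and Gdf2 were in no promoter table and Gdf5 held KAP1 only, while Bmp3, Bmp8a, Bmp8b and Gdf7 had Ring1b at a promoter. The middle of that peak lay inside the promoter for 3 of the 5 (Bmp2, Bmp6 and Bmp7) and beyond it for Bmp4 and Gdf6. The Gdf6 peak still covered the whole promoter, with its summit at -43 bp from the start, while the Bmp4 summit lay at 1717 bp. A promoter is the authors' window reaching 1 kb upstream and 1 kb downstream of a transcript start. By the authors' deposited tables KAP1 was at the promoters of 8 of 10 ligand genes, against 58.6% of protein-coding genes. Ring1b was at 7 of 10, against 28.7% of protein-coding genes. The promoters of Bmp6, Bmp7, Gdf6, Inhbb and Lefty2 held both proteins (5 of 10, against 24.8% of protein-coding genes). Those of Nodal, Gdf3 and Lefty1 held KAP1 only (3 of 10, against 34.3%), and those of Bmp2 and Bmp4 held Ring1b only (2 of 10, against 4.04%). The highest promoter peak scored a median of 290 for KAP1 over the 8 ligand genes that had one (lowest 57.3, highest 754), against 148 over all genes with KAP1 at a promoter. The Nodal and Inhbb peaks behind this median reached only 32 and 110 bp into the promoter, and with the scores of the authors' deposited table for promoters the KAP1 median was 174 over the 8 ligand genes, against 134 over all genes. For Ring1b the highest peak scored a median of 1786 over 7 ligand genes (lowest 304, highest 3100), against 228 over all genes with Ring1b at a promoter. The Ring1b peaks were also broader, with a median width of 3101 bp at the ligand promoters and 920 bp over all such genes.

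**Figure D1:**
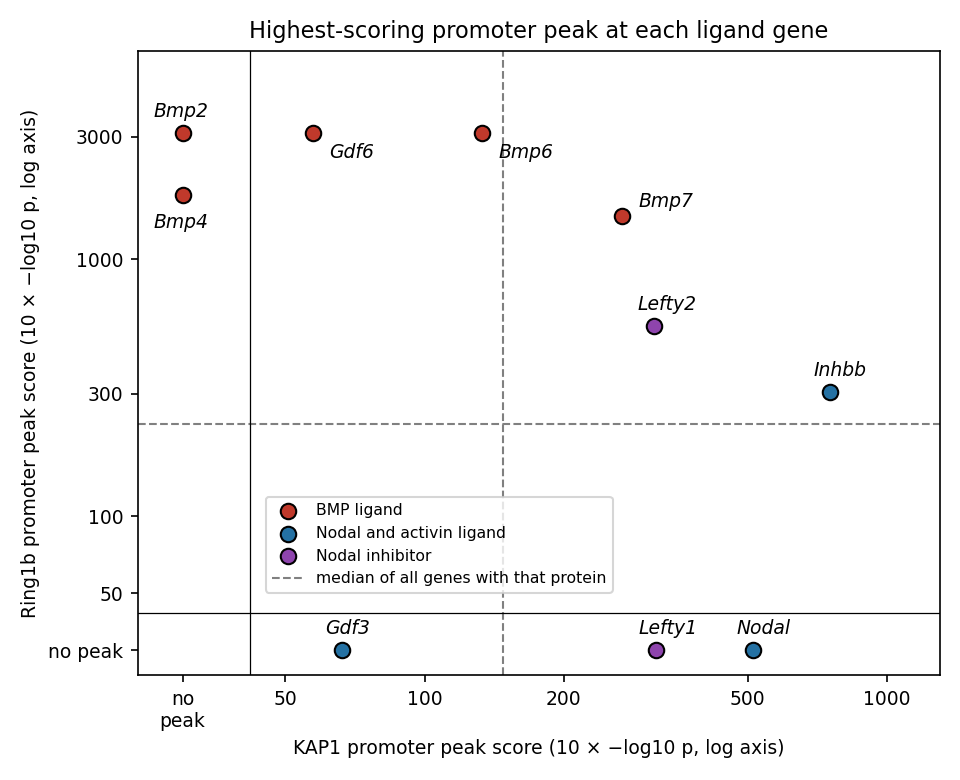
Score of the highest KAP1 peak (horizontal, log axis) and of the highest Ring1b peak (vertical, log axis) touching the promoter of each ligand gene, with separate strips for genes that have no such peak. Dashed lines are the medians over all genes with that protein at a promoter, 148 for KAP1 and 228 for Ring1b, and the BMP ligands (red) hold the 5 highest Ring1b scores while Nodal, Gdf3 and Lefty1 sit in the strip with no Ring1b peak.

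RefSeq sequences (GRCm38.p6) of the 250 bases before the gene start were at hand for 4 of the 10 genes, Bmp4, Bmp6, Inhbb and Nodal. They are shown because these genes cover the Ring1b only, the shared and the KAP1 only promoters, and capitals mark the bases that lie inside a KAP1 peak.
Bmp4: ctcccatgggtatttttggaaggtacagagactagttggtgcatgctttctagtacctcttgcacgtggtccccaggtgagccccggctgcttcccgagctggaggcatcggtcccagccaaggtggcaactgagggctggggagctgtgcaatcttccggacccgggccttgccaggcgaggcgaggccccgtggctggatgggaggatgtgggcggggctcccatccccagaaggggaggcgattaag
Bmp6: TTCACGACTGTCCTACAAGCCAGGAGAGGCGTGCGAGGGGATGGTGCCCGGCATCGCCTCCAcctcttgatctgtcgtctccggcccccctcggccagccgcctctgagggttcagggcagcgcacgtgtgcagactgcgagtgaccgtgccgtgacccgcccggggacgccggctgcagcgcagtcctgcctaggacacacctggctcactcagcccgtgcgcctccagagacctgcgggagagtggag
Inhbb: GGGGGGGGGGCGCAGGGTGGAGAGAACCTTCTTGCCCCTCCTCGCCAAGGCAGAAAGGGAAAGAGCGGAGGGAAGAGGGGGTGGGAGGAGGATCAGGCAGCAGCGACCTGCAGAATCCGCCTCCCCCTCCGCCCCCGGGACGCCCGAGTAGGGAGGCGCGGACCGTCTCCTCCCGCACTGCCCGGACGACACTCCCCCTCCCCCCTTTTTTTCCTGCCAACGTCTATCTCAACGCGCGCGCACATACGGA
Nodal: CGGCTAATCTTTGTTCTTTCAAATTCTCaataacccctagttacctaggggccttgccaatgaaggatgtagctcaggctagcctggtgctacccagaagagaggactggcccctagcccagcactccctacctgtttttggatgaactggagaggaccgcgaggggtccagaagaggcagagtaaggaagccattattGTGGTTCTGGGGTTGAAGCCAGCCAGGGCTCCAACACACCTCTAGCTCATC
The Bmp4 stretch (chr14:46390670-46390919, minus strand) had 0 bases in a KAP1 peak and its last 127 bases in a Ring1b peak. In Bmp6 (chr13:38345466-38345715, plus strand) the first 62 bases were in a KAP1 peak and all 250 in a Ring1b peak. The Inhbb stretch (chr1:119422249-119422498, minus strand) lay wholly in peaks of both proteins. In Nodal (chr10:61417722-61417971, plus strand) 79 bases lay in KAP1 peaks, the first 28 and the last 51, and 0 in a Ring1b peak.

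The 4 stretches differed in base composition. Nodal had 53.2% G or C and 3 CpG dinucleotides, a CpG observed over expected ratio of 0.170. Bmp4 had 63.2% and 11 CpG (ratio 0.451), Inhbb 68.0% and 21 CpG (ratio 0.727), and Bmp6 68.8% and 22 CpG (ratio 0.745). The ratio was lower in 18.8% of the 20488 RefSeq promoters for Nodal, in 42.9% for Bmp4, in 66.2% for Inhbb and in 68.1% for Bmp6. The medians over RefSeq promoters with both proteins in the 250 bases were 64.8% G or C and a ratio of 0.750. They were 60.4% and 0.749 with KAP1 only, 62.4% and 0.660 with Ring1b only, and 47.6% and 0.211 with neither protein, so the ratio of the Nodal stretch lay below the median of each group, and that of Bmp4 below the Ring1b only median. Motifs were searched on both strands. The GC box GGGCGG was present in Bmp4, Bmp6 and Inhbb, and in 43.9% of all promoters. The E-box CACGTG was present in Bmp4 and Bmp6, and in 6.81% of all promoters. The CCAAT box was present in Nodal, and in 35.5% of all promoters. The letters TATAAA (11.5% of all promoters), the Smad element GGCGCC (12.6%) and the FOXH1 element TGTGGATT (0.683%) were in none of the 4.

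The promoters of the chosen BMP ligands carried broad Ring1b domains, and all but Bmp7 had fewer bases in KAP1 peaks within 20 kb than the median deposited promoter. Bmp2 (chromosome 2, 133552159 to 133562896, plus strand), a ligand needed for heart and amnion formation, had a Ring1b peak of 3417 bp with a score of 3100, from -1421 to 1995 bp relative to the deposited transcript start. That start lies 1040 bp inside the RefSeq gene. The only KAP1 peak within 20 kb of Bmp2 scored 74.2, was 556 bp wide and ran from 1047 to 1602 bp. It lay inside the Ring1b peak but 47 bp beyond the promoter window, so that Bmp2 counts as Ring1b only at the promoter and as shared over the whole gene.

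Bmp4 (chromosome 14, 46383525 to 46390669, minus strand), needed for mesoderm and germ cell formation, had a Ring1b peak of 3415 bp with a score of 1786. It ran from -197 to 3217 bp and so lay over the gene rather than upstream of it. A second, lower Ring1b peak (score 121) lay 7314 bp upstream of the gene. The only KAP1 peak within 50 kb of Bmp4 was 301 bp wide with a score of 52.9, close to the lowest score of the list (50.0), and ran from 4965 to 5265 bp without touching either Ring1b peak. The authors' deposited table of shared whole genes holds Bmp4 only in a row headed by the neighbouring noncoding gene Gm15217, whose accession list includes it.

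Bmp6 (chromosome 13, 38345716 to 38500314, plus strand), the ligand that induces the iron hormone hepcidin in liver, had a Ring1b peak of 3101 bp with a score of 3100. Its promoter KAP1 peak scored 133 over 913 bp, a score above that of 67.8% of the KAP1 list. The KAP1 peak lay wholly inside the Ring1b peak and covered 29.4% of it, and the summits were 1302 bp apart.

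Bmp7 (chromosome 2, 172868012 to 172940321, minus strand), needed for kidney and eye formation, had a Ring1b peak of 2754 bp with a score of 1480, the lowest of the 5 BMP ligands. Its promoter held KAP1 peaks with scores of 267 and 156, both wholly inside the Ring1b peak, and together they covered 79.6% of it. The summits of the strongest pair were 274 bp apart. Bmp7 also had a second group of KAP1 peaks, at the far end of the gene about 68 kb from the start. The strongest peak there scored 483, above the promoter peaks, and contained a small Ring1b peak with a score of 55.7.

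Gdf6 (chromosome 4, 9844372 to 9862345, plus strand), needed for joint formation, had the widest Ring1b peak of the 10 genes, 5285 bp with a score of 3100, from -1617 to 3667 bp. Its promoter KAP1 peak was among the weakest of its list, with a score of 57.3 over 990 bp, above that of 11.8% of the list. It lay wholly inside the Ring1b peak, with the summits 61 bp apart. A second Ring1b peak of 1613 bp (score 692) near the end of the gene also contained a weak KAP1 peak (score 50.9).

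**Figure D2:**
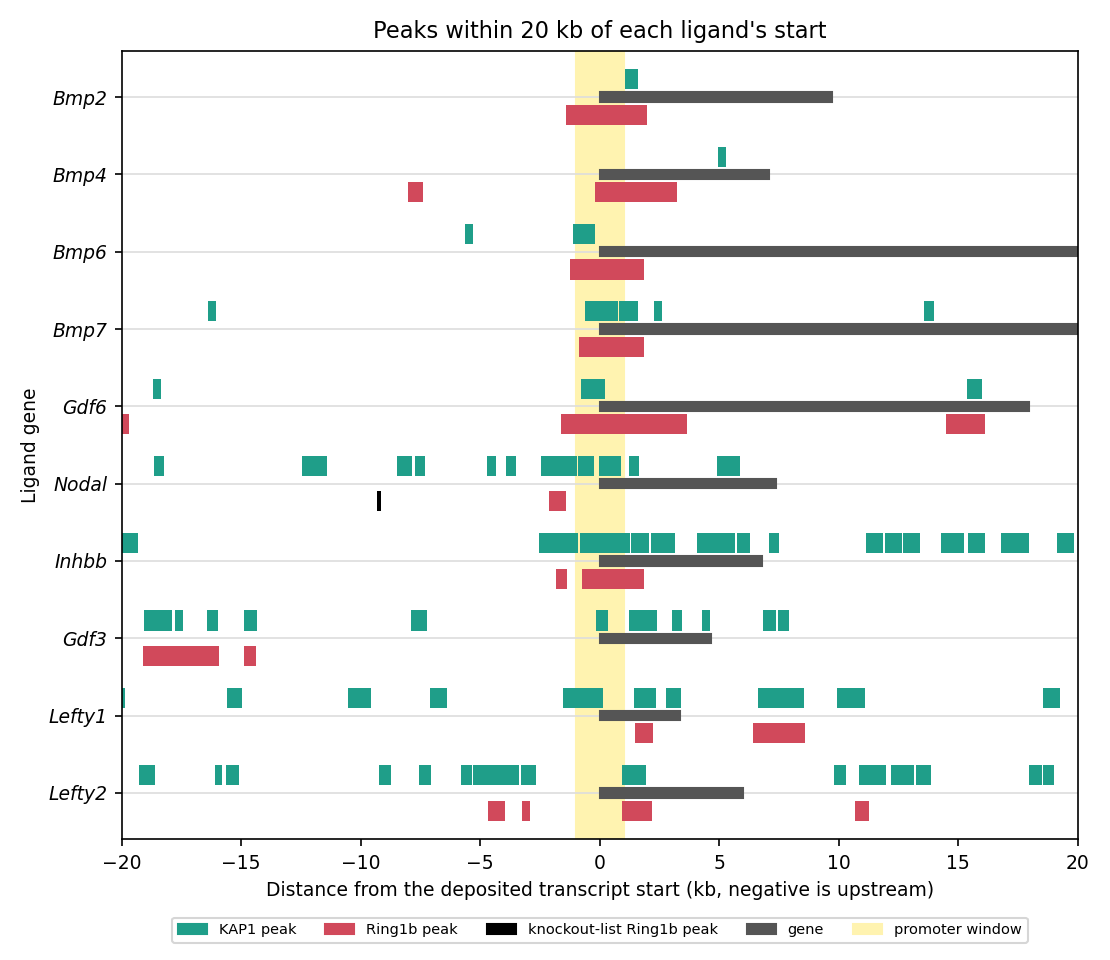
Peaks of the KAP1 list (green, above each gene), the Ring1b list (red, below) and the knockout list (black) within 20 kb of the deposited transcript start of each ligand gene, drawn to scale in kb with the gene in dark grey and the promoter window in yellow. The start regions of Bmp2, Bmp4, Bmp6, Bmp7 and Gdf6 carry Ring1b peaks of 2754 to 5285 bp, and KAP1 peaks are dense around Nodal, Inhbb, Gdf3, Lefty1 and Lefty2.

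Among the Nodal and activin ligands, Nodal and Inhbb had KAP1 promoter peaks near the top of the KAP1 list and Gdf3 a low one. Ring1b scored lower than at the BMP ligands (Inhbb) or was off the promoter (Nodal and Gdf3). Nodal (chromosome 10, 61417972 to 61425338, plus strand), the ligand that starts gastrulation and sets left from right, had 3 KAP1 peaks touching the promoter window. Their scores were 512, 146 and 59.2. The strongest was above 99.1% of its list, but it ran from -2458 to -969 bp and reached only 32 bp into the window. The authors' deposited table gives the Nodal promoter a KAP1 score of 157, for a region at the start itself. A Ring1b peak of 700 bp with a score of 97.9 lay from -2120 to -1421 bp, wholly inside the strongest KAP1 peak and 420 bp outside the window. Nodal therefore counts as KAP1 only, although both lists hold a peak at 1 upstream site.

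Inhbb (chromosome 1, 119415463 to 119422248, minus strand) encodes the subunit that forms activin B. Its strongest promoter KAP1 peak scored 754 over 1655 bp, above 99.9% of the list and the highest of the 10 genes. That peak ran from -2545 to -891 bp and reached only 110 bp into the window, and the authors' deposited table gives the Inhbb promoter a KAP1 score of 487. It did not meet the promoter Ring1b peak, which scored 304 over 2581 bp. A neighbouring KAP1 peak over the start itself, 2097 bp wide with a score of 557, did, and 99.1% of the Ring1b peak lay within KAP1 peaks. A smaller Ring1b peak (score 71.2) lay inside the upstream KAP1 peak. The highest-scoring KAP1 peak near Inhbb, 1226 over 2835 bp, lay 15755 bp downstream of the gene and held a Ring1b peak with a score of 302.

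Gdf3 (chromosome 6, 122605403 to 122610087, minus strand), a ligand expressed in pluripotent cells, was the only one of the 10 genes with no Ring1b peak in the gene or within 5 kb. Its promoter KAP1 peak was modest, with a score of 66.4 over 527 bp. 12 KAP1 peaks lay within 20 kb of Gdf3. The nearest Ring1b peaks were 3 with scores of 104, 595 and 1076, between 14367 and 17005 bp upstream, at or near Dppa3, a neighbouring gene of pluripotent and germ cells.

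The Lefty genes lie close together on chromosome 1 and differ in class by where their peaks fall. Lefty1 (180935022 to 180938401, plus strand) had a KAP1 peak of 1685 bp over its start, with a score of 316. The authors' deposited table gives the Lefty1 promoter a KAP1 score of 191. Its Ring1b peak, 776 bp with a score of 238, lay from 1466 to 2241 bp inside the gene, wholly within another KAP1 peak (score 264) and 466 bp outside the promoter window. Lefty1 therefore counts as KAP1 only at the promoter and as shared over the whole gene. A stronger KAP1 peak (score 1042) lay from -7094 to -6400 bp, and a Ring1b peak of 2193 bp (score 1048) lay 3050 bp downstream of the gene, over the start region of the neighbouring gene Tmem63a.

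Lefty2 (180893108 to 180899107, plus strand) had a KAP1 peak of 1019 bp (score 313) and a Ring1b peak of 1235 bp (score 548), both starting in the last part of the promoter window. They reached 84 and 57 bp into it, and 80.3% of the Ring1b peak lay in the KAP1 peak, with the summits 106 bp apart. The inner KAP1 and Ring1b peaks of Lefty1 lay at a partly overlapping range of distances, 1420 to 2346 bp and 1466 to 2241 bp from its start, and so outside the window. A stronger KAP1 peak of Lefty2 (score 774) lay from -5297 to -3375 bp and held a weak Ring1b peak (score 63.6). Lefty1 and Lefty2 are close paralogs, and the sources used here do not say how reads that fit both were placed. Noncoding genes overlap Bmp4 (Gm15222), Bmp7 (Gm40010) and Lefty1 (Gm39715), and a peak there cannot be given to 1 gene of the pair.

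Over the whole gene 8 of 10 ligand genes were in the authors' deposited table for both proteins, against 30.7% of protein-coding genes. Nodal and Gdf3 were listed with KAP1 only (2 of 10, against 30.7%). Only 7 of the 8 are found by the gene symbol that heads the row, Bmp4 being the exception. Gene length differs between the groups compared: the ligand genes had a median length of 7.26 kb, against 17.7 kb for all protein-coding genes. With 5 kb added on each side, both peak lists had a peak at 9 of 10 ligand genes, against 37.3% of protein-coding genes, Gdf3 being the exception.

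Counted within 20 kb of the transcript start, the BMP ligands and the other 5 genes separated in KAP1 peaks and overlapped in Ring1b peaks (1 to 3 around the BMP ligands and 1 to 4 around the others). The BMP ligands had 1 (Bmp2), 1 (Bmp4), 2 (Bmp6), 5 (Bmp7) and 3 (Gdf6) KAP1 peaks. Nodal had 11, Inhbb 15, Gdf3 12, Lefty1 10 and Lefty2 16. The median over the 10887 deposited promoters of 2 kb, each of which holds at least 1 of the proteins, was 3. Counted instead in the gene or within 20 kb of it, the groups did not separate. Bmp7 then had 18 KAP1 peaks, against 12 for Nodal and Gdf3, 13 for Lefty1 and 17 for Inhbb and Lefty2. Bmp2, Bmp4, Bmp6 and Gdf6 had 1 to 5. Within 20 kb of the start, KAP1 peaks covered 301 to 3301 bp around the BMP ligands and 6660 to 14517 bp around the other 5. The median over deposited promoters was 2131 bp, and Inhbb was above 99.8% of them. Ring1b peaks covered 2754 to 7188 bp around the BMP ligands, 700 bp around Nodal and 2931 to 3693 bp around Inhbb, Gdf3, Lefty1 and Lefty2. The median over deposited promoters was 510 bp, and every ligand gene was above it. For Gdf3 and Lefty1 much of that coverage belongs to the peaks near Dppa3 and Tmem63a.

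**Figure D3:**
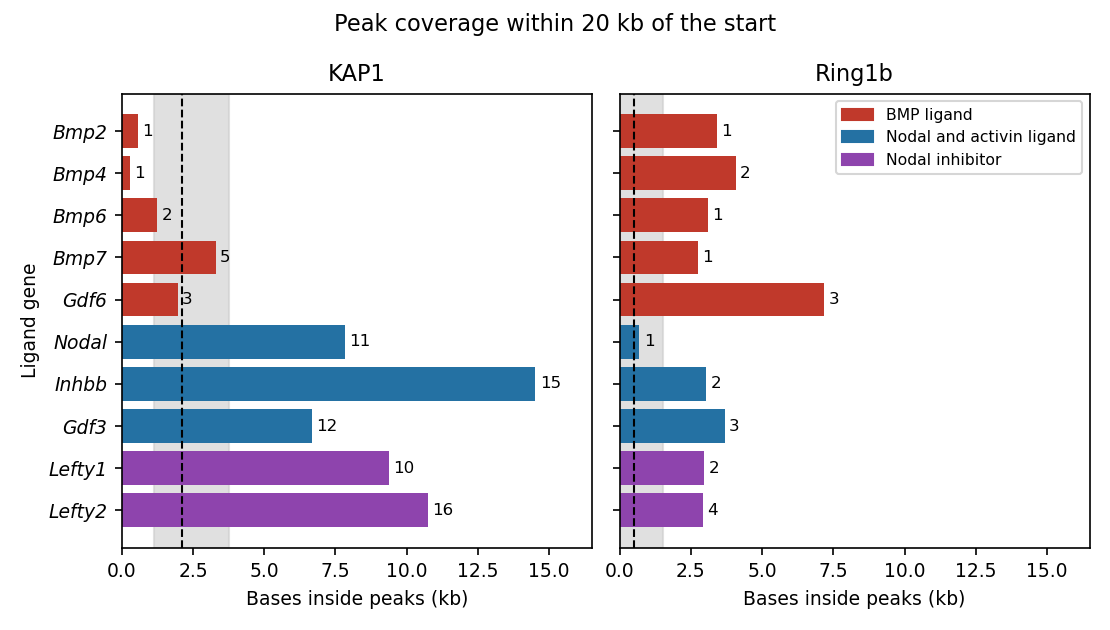
Bases inside KAP1 peaks (left) and Ring1b peaks (right) within 20 kb of the transcript start of each ligand gene, in kb, with the number of peaks at the end of each bar. The dashed line and grey band are the median and quartiles over 10887 deposited promoters (median 2.13 kb for KAP1 and 0.51 kb for Ring1b), and the KAP1 bars of the BMP ligands stay below all those of the other 5 genes.

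Taken as single peaks, 99 KAP1 and 23 Ring1b peaks lay in or within 20 kb of the 10 genes. KAP1 peaks overlapped 20 of these 23 Ring1b peaks (87.0%, against 76.6% of the Ring1b list). The 3 that did not were both Ring1b peaks of Bmp4 and the one 19711 bp upstream of Gdf6. 23 of the 99 KAP1 peaks overlapped a Ring1b peak (23.2%, against 13.7% of the KAP1 list). The choice of genes listed with either protein may raise both shares. Several of the Ring1b peaks also lay around Inhbb, Gdf3, Lefty1 and Lefty2, which had 10 to 16 KAP1 peaks within 20 kb of the start.

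The knockout list had no peak at any of the 10 genes. In the gene or within 5 kb of it, 0 of 10 genes had a peak of the knockout list, against 18.1% of all protein-coding genes, and a count of 0 allows a share of up to 30% of 10 genes. The list of vehicle-treated Ring1b fl/fl cells had a peak in that range at 9 of 10, against 39.3% of protein-coding genes. 0 of the 23 Ring1b peaks near the ligand genes overlapped a knockout-list peak, which allows a share of up to 13.0%, and over the whole Ring1b list the share was 0.326%. With so low a share over the list, this count of 0 does not set the peaks near the ligand genes apart. Both limits treat genes and peaks as independent draws, which chosen genes and neighbouring peaks are not. The only knockout-list peak within 20 kb of a ligand gene (1 of 10 genes, against 28.6% of protein-coding genes) lay 9157 bp upstream of Nodal (chromosome 10, 61408658 to 61408815), was 158 bp wide with a score of 53.1, and lay in no KAP1 or vehicle Ring1b peak. The control of this list was another cell line, and it has no Ring1b library from vehicle-treated KAP1 fl/fl cells beside it here, so a loss of Ring1b with KAP1 cannot be told apart from a difference between lines or libraries.

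The other genes of the pathway were described as 6 lists with 92 genes in all. Of these 56 had both proteins at a promoter, 16 KAP1 only, 7 Ring1b only and 14 neither, where a gene with promoters in different classes counts in each. Over all protein-coding genes 24.8% were shared, 34.3% KAP1 only, 4.04% Ring1b only and 37.5% in no promoter table. Among 23 other ligands of the superfamily 9 were shared, 5 KAP1 only, 1 Ring1b only and 8 in no promoter table. The highest Ring1b scores there were those of Tgfb2 (3100), Gdf7 (1741) and Tgfb3 (1279), and the highest KAP1 scores those of Inha (629), Tgfb2 (362) and Gdf15 (342). Of 19 receptors and co-receptors 10 were shared, 4 KAP1 only, 1 Ring1b only and 4 in no table. The coreceptors Tgfbr3 (2177), Rgma (1910) and Rgmb (702) led by Ring1b score. Tdgf1, the Nodal co-receptor Cripto, led by KAP1 score (378) with a Ring1b score of 87.6, and Tgfbr3 (200) and the BMP receptor Bmpr2 (187) followed it.

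Inside the cell, all 13 Smads and nuclear partners had KAP1 at a promoter, 9 of them with Ring1b. Over all protein-coding genes 58.6% had KAP1 and 28.7% had Ring1b at a promoter. The inhibitory Smad6 (2894), Smad3 (1145) and Smad9 (542) had the highest Ring1b scores. Smurf2 (472), Smad7 (383) and Foxh1 (327), the partner of Smad2 in the Nodal response, had the highest KAP1 scores. Outside it, 9 of 16 antagonists were shared, 3 KAP1 only, 2 Ring1b only and 2 in no table. The BMP antagonists Nog and Grem1 and the activin antagonist Fst each had a Ring1b score of 3100, Grem1 with no KAP1 at its promoter. Bambi (280), Bmper (261) and Fst (214) had the highest KAP1 scores. Of 6 processing enzymes 5 were shared and 1 Ring1b only, with Pcsk5 and Tll1 at a Ring1b score of 3100 and Bmp1 at 714. Pcsk5 (187), Pcsk6 (107) and Tll2 (96.5) had the highest KAP1 scores.

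All 15 listed target genes had Ring1b at a promoter (28.7% of protein-coding genes) and 14 of them had both proteins (24.8%). This list, like the others, was chosen with earlier results of these data known, so its shares may be raised by the choice. The Lefty genes, which the pathway also switches on, are counted with the ligands instead. Lefty1 had KAP1 only at its promoter and Lefty2 both proteins. Eomes, Foxa2 and Gsc, which act in mesoderm and endoderm, each had a Ring1b score of 3100, and Mixl1 (247), Id1 (221) and Eomes (198) the highest KAP1 scores. The median Ring1b score over promoters that had the protein was 1786 for the 10 ligand genes, 3100 for targets, 2082 for antagonists, 928 for other ligands, 472 for processing enzymes, 410 for receptors, 142 for Smads and partners, and 228 for all genes. Knockout-list peaks in or within 5 kb were found at 0 of 10 ligand genes, 0 of 15 targets, 1 of 16 antagonists, 2 of 23 other ligands, 2 of 6 processing enzymes, 4 of 13 Smads and partners, and 9 of 19 receptors, against 18.1% of all protein-coding genes. The median gene length was 7.26 kb for the ligand genes, 4.09 kb for targets, 10.4 kb for antagonists and 11.2 kb for other ligands. It was 44.4 kb for receptors, 68.5 kb for Smads and partners, 159 kb for processing enzymes and 17.7 kb for all protein-coding genes. The part of length in these counts was not tested.

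**Figure D4:**
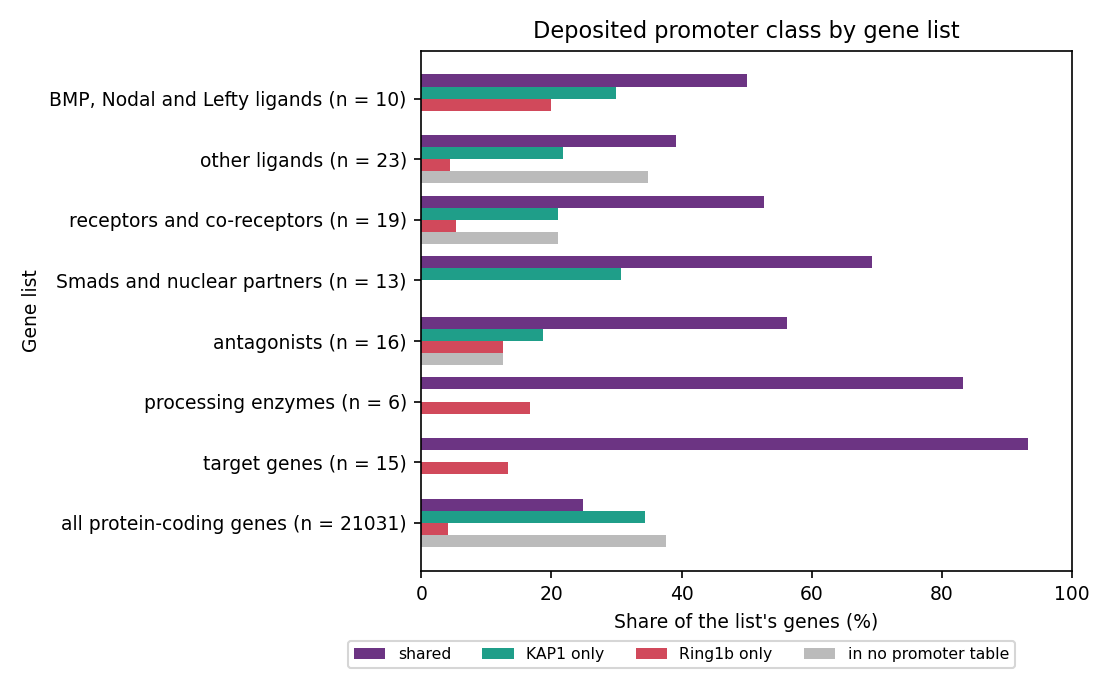
Share of genes (percent) in each promoter class of the authors' deposited tables for the 10 ligand genes, the 6 lists of other pathway genes and all protein-coding genes. The shared class holds 50% of the ligand genes and 24.8% of all genes, and a gene with promoters in 2 classes counts in each.

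The genes with the most similar pair of promoter scores, out of 5226 genes compared by distance on a log10 scale over these 2 values, were found for the 5 ligands with both proteins. Bmp6 was closest to Dlx1 (KAP1 133, Ring1b 3100) and Gdf6 to Tbr1 (KAP1 57.2, Ring1b 3100). A Ring1b score of 3100 is shared by 732 peaks, so these matches were set by the KAP1 score alone. Bmp7 was closest to Lpgat1 (KAP1 267, Ring1b 1492), Inhbb to Ro60 (KAP1 727, Ring1b 309) and Lefty2 to Pwwp2b (KAP1 305, Ring1b 530).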

How the data were processed

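The submitters' processing notes name build mm10 (GRCm38), bedtools 2.16.2, MACS 1.4.2, Bowtie2 and CASAVA 1.8.2. Each of the 3 deposited peak lists holds a score per peak, which the authors computed with MACS as 10 times -log10 p, with a p threshold of 10e-5 per the file headers. The 6 deposited tables use the same score and give regions whose borders at times differ from the listed peaks. Their whole-gene window starts 1 kb before the lower coordinate whatever the strand, so for the minus-strand genes Bmp4, Bmp7, Inhbb and Gdf3 it leaves out the upstream side. The sources used here do not give read depth, and limits from counts of 0 (3 counts of the total) cover counting error only.

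Table rows were assigned to genes by RefSeq accession (GRCm38.p6), and by symbol where no accession matched. A row that merges genes counts for each of them. Overlap meant at least 1 bp. Strand was taken from the end of the RefSeq gene nearest the deposited start. No test was run. Every ligand gene is named. From each list the genes with the 3 highest Ring1b and the 3 highest KAP1 promoter scores are named, ties by symbol. Members and lists were chosen with earlier results of these data known. Python 3.11.15, pandas 2.3.3 and numpy 2.4.6 were used, and the peak counting was tested on simulated data. Alternatives changed the promoter window, the score threshold, the start used, the overlap and the margin.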

Additional observations from a re-analysis of the deposited data

How the results depend on the processing

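Over 27 alternatives to the promoter, gene and knockout-list values, 20 stayed within 1.5 times the main value and 7 did not. Counting a peak only where its middle lay in the promoter window left 4 genes with Ring1b and 3 with both proteins, against 7 and 5, and 3 of the 5 BMP ligands with Ring1b, without Bmp4 and Gdf6. A window of 5 kb on each side of the start gave 9 genes with both proteins, and 8 whose KAP1 and Ring1b peaks overlapped. A margin of 50 kb gave 2 genes with a knockout-list peak, Nodal and Bmp7, against 0, where 44.4% of protein-coding genes have one. With scores at or above the list median, 6 genes kept KAP1 at the promoter, Gdf6 and Gdf3 being lost. Lefty2 lost both proteins with a window of 500 bp. Shares of all protein-coding genes under the changed windows, the peak-middle rule and the score threshold are not given here. The counts under those rules therefore cannot be set against the shares given for the main rule. 3 kinds of alternative were chosen after seeing the data: the BMP ligand count above, whole-gene rows matched by the heading symbol alone (7 genes), and the scores of the authors' deposited table for promoters. Those scores gave a median of 174 for KAP1 in place of 290, and 1786 for Ring1b in both. No paired analysis was possible because each group has 1 library. The unknown read depth limits what the absence of a peak shows.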
